A study of Mus musculus with 5 samples.

Results

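Amino acid transporters of 7 solute carrier families (Slc1, Slc3, Slc6, Slc7, Slc36, Slc38 and Slc43) were followed through kidney obstruction and its release. The members were the gene symbols of these families for which at least 1 unique molecular identifier (UMI, a tag that marks 1 captured RNA molecule) was counted in 4 droplet single-cell libraries. Of 66 symbols that matched, 63 qualified, among 28692 genes listed and 20576 genes with at least 1 UMI. Slc6a5, Slc6a16 and Slc1a7 had 0 UMIs. Among the 63 are 4 opposite-strand genes named after their neighbours (Slc7a6os, Slc36a3os, Slc6a19os and Slc36a1os), which are not transporters, and Slc43a3, which carries purine nucleobases. Mouse kidney cells came from reversible unilateral ureteric obstruction (UUO), a model that blocks the outflow of a kidney and can later release it. Kidneys were taken after sham surgery (day 0), at 2 or at 7 days of obstruction (day 2 and day 7), or on day 14 of the experiment, 7 days after the obstruction was reversed (reversed UUO). All mice were 8 week old C57/BL6 animals, with no genetic change named in the labels, and 1 library made from a pool of 3 mice stands for each time point. The tissue was dissociated on ice, dead cells were gated out by DAPI in a sorter, and 10x 3′ V2 libraries were made, so cells lost in these steps were not seen. Another sample of 768 Smart-seq2 wells mixed all time points and was used only to describe levels.

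Filtered amino acids are recovered in the proximal tubule, whose first part (S1) takes up most of the load and whose last part (S3) takes up what is left. Entry from the urine side is carried by Slc6a19 and its relative Slc6a18 for neutral amino acids, which need the partner collectrin (Tmem27) to reach the membrane, by Slc1a1 for acidic amino acids, and by light chains bound to the heavy chain Slc3a1 (rBAT), namely Slc7a9 for cystine and basic amino acids and Slc7a13 for aspartate, glutamate and cystine. Exit to the blood side runs through the heavy chain Slc3a2 (4F2hc) with Slc7a7 for basic and Slc7a8 for neutral amino acids, and through the uniporter Slc43a2. Other cells use Slc1a5, Slc38a1 and Slc38a2 for glutamine and other neutral amino acids, Slc7a5 for large neutral ones, Slc7a11 to import cystine for glutathione, Slc6a6 for taurine, Slc6a8 for creatine, and Slc36a1, Slc38a7 and Slc38a9 at the lysosome.

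The deposited matrices held 18649637 to 30462683 UMIs and 2739 to 5938 cells per library, and 2159 to 4287 cells were kept. Cells were assigned by gates on marker genes that hold no member: S1 (1930, 350, 84 and 773 cells in sham, day 2, day 7 and reversed UUO), S3 (377, 122, 95 and 174), all proximal tubule cells, S1, S3 and unsplit together (3039, 612, 230 and 1139), mononuclear phagocytes (57, 532, 2315 and 589), T cells (18, 106, 308 and 256), endothelium (226, 155, 483 and 367), 4 further tubule types and tubule cells without a segment. A thin limb gate held 5, 21, 7 and 4 cells and was left out. Levels are a gate's UMIs of a gene scaled to a common total (CPM), so fewer molecules per cell and more of everything else cannot be told apart. Mitochondrial UMIs took 33.9, 24.0, 17.6 and 28.5% of the proximal tubule UMIs in sham, day 2, day 7 and reversed UUO, and this moves with every CPM of that gate. Abundant tubule genes were counted in other cells too: a list of them, read as free RNA, summed to 5632, 972, 455 and 2479 CPM in endothelial cells in the same order, against 56517, 40694, 19797 and 37914 CPM in S1. Barcodes shared by pairs of libraries numbered 16 to 39. Time points have 1 library each, so they were not tested, and intervals on their ratios cover counting error only and not the spread between mice. Gates were compared within the 4 libraries by edgeR's quasi-likelihood test with the library as a block, whose p-values are adjusted over all genes tested. The folds of these tests carry TMM factors, which centre the bulk of genes. The CPM printed beside them do not, so a fold can differ from the ratio of the CPM.

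The members together made up 0.151%, 0.0964%, 0.0845% and 0.121% of all UMIs of the sham, day 2, day 7 and reversed libraries. Of the 63, 34 had at least 200 UMIs over the gated cells and are described by gate, 12 had 30 or more in all but fewer than 200 in gated cells, and 17 had 1 to 29. Ranked by mean CPM over the libraries within the tubule, endothelium, phagocyte and T cell gates, the 34 reached their highest level in S3 (7 members), S1 (6), endothelium (6), T cells (5), phagocytes (3), intercalated cells (2), principal cells (2), unsplit proximal tubule (1), distal convoluted tubule (1) and thick ascending limb (1). The T cell means weigh a sham value from 18 cells: Slc7a5 had 2 UMIs there and Slc36a3os 1, and Slc7a5 was highest in T cells in 1 of 4 libraries. Smaller gates were not ranked: Slc7a11 was higher in neutrophils than in any ranked gate (417 to 1479.9 CPM in the 3 libraries that held them), and Slc6a6 in 2 to 7 podocytes a library stood at 86.9, 500.3, 772 and 1028 CPM in sham, day 2, day 7 and reversed UUO. These podocyte values rest on 1, 8, 14 and 62 UMIs, and that of sham had a counting interval of 2.2 to 484 CPM. Apical entry carriers summed to 728 CPM at sham, 617 at day 2, 455 at day 7 and 624 once reversed in S1 and 1422 CPM at sham, 634 at day 2, 908 at day 7 and 1066 once reversed in S3. Basolateral carriers summed to 814, 723, 462 and 684 CPM in S1 and 135, 285, 143 and 176 CPM in S3, in the same order. The basolateral sum was higher in S1 in all 4 libraries. The apical sum was higher in S3 in all 4, by little on day 2, and this rests on Slc7a13: without it the apical sum was 708, 617, 447 and 619 CPM in S1 and 670.1, 615, 613 and 609 CPM in S3, so that S3 was above S1 on day 7 alone.

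**Figure D1:**
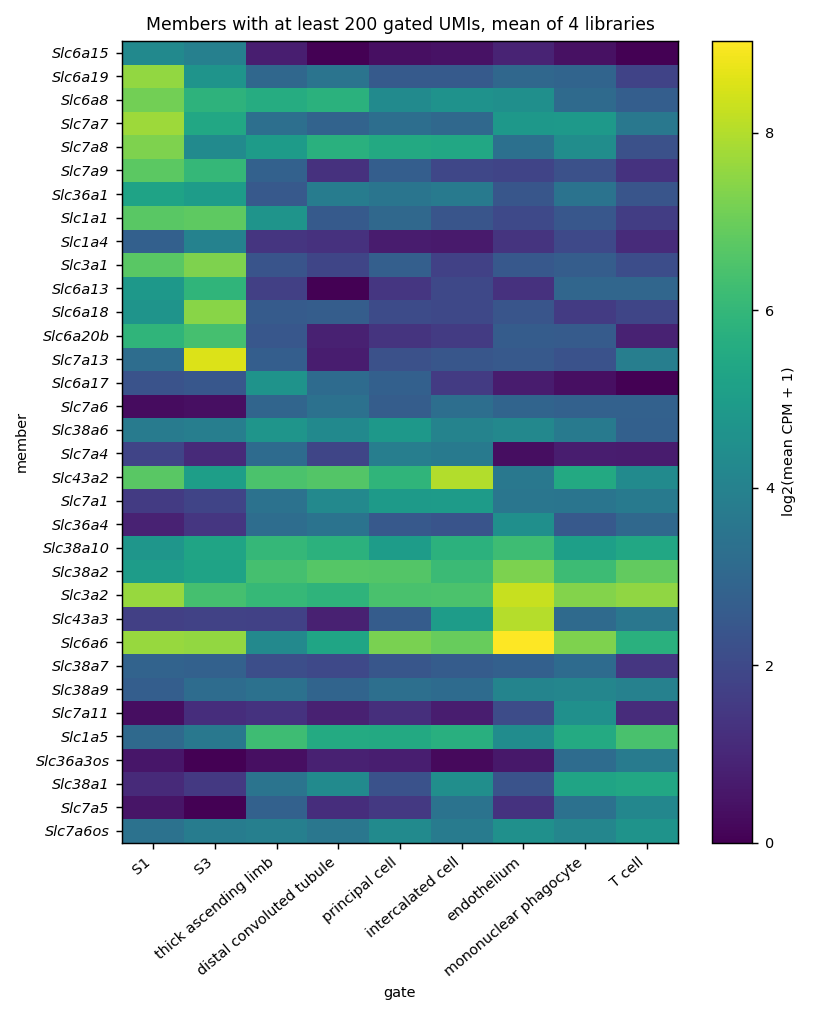
Mean level of the 34 members with at least 200 gated UMIs (rows) by gate (columns), as log2 of the mean CPM of the 4 libraries plus 1, given by the colour bar (yellow high, dark low). Unsplit proximal tubule, the top gate of Slc36a1, and tubule cells without a segment are not drawn. Carriers of filtered amino acids are brightest in the S1 and S3 columns, Slc6a6, Slc3a2, Slc38a2 and Slc43a3 in endothelium and Slc43a2 in intercalated cells.

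Whether the 2 ends of the proximal tubule use different carriers was asked by testing S3 against S1. Of 23 members tested, 5 were higher in S3 and 7 lower, and 11 were not called at an adjusted p of 0.05. Among all 7005 genes tested, 7.22% were higher and 6.48% lower, and the median log2 fold was 0.02 for the members and -0.01 for all genes. Each of the 12 called members had the same direction in 4 of 4 libraries. The gates rest on other segment genes, and no member was used to draw them.

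The S3 side was led by Slc7a13, the rBAT-bound carrier of aspartate, glutamate and cystine (chr4:19818725-19842218, GRCm38): log2 fold 5.54 ± 0.25 SE, adjusted p = 2.25e-11. Its log2 fold ranged from 3.99 to 6.20 over the settings run, and the call held in them. It stood at 751 CPM at sham, 18.6 at day 2, 295 at day 7 and 457 once reversed in S3, against 20.4, 0, 7.93 and 4.86 CPM in S1. Slc6a18, the carrier of glycine and other neutral amino acids (chr13:73661752-73678023), stood at 178, 195, 148 and 171 CPM in S3 and 14.4, 27.2, 44.4 and 11.5 CPM in S1 in that order (log2 fold 3.09 ± 0.22 SE, adjusted p = 1.03e-08). S3 exceeded S1 in each library for both genes, except that Slc7a13 on day 2 rests on 12 UMIs in S3 and 0 in S1. Slc1a4, a carrier of alanine, serine and cysteine, was also higher in S3 (log2 fold 1.42 ± 0.33 SE, adjusted p = 0.00527), at 9.62, 24.8, 12.9 and 12.7 CPM against 1.81, 13.1, 4.76 and 3.98 CPM in S1. Slc6a13, which carries GABA and taurine, was higher as well (log2 fold 1.04 ± 0.16 SE, adjusted p = 0.000173), with 61.2, 52.7, 51.6 and 69.4 CPM in S3 and 22.8, 28.7, 23.8 and 33.2 CPM in S1. The heavy chain Slc3a1 (chr17:85028376-85064236) showed the smallest called rise (log2 fold 0.49 ± 0.14 SE, adjusted p = 0.0201), at 160.1, 143, 168 and 153 CPM in S3 against 99.3, 108, 103 and 107 CPM in S1. The heavy chain thus differed by less than its light chains, of which Slc7a13 was higher in S3 and Slc7a9 in S1. The Slc3a1 call was lost in DESeq2, without a filter on low counts, without the library block, with at most 20% mitochondrial UMIs per cell, and without sham or without reversed UUO, with folds of 0.36 to 0.52. Slc1a4 lost its call without the library block (log2 fold 1.33) and without reversed UUO (1.37), kept it without day 7, and had too few UMIs to be tested without sham or without day 2.

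The promoters of the heavy chain Slc3a1 and the GABA carrier Slc6a13 are shown because each holds a letter run known from kidney epithelial transcription factors. Sequences are the 250 bases before the RefSeq start on GRCm38.p6, 5′ to 3′ on the gene's strand, and 45 of the 63 members had an entry in the promoter table. Slc3a1 (chr17:85028097-85028346, plus strand) has CAAAGTC, an HNF4-type run, in capitals 39 to 33 bases before the start. Slc6a13 (chr6:121300490-121300739, plus strand) has GTTAATNA, an HNF1-type run, on the other strand 70 to 63 bases before the start. In the GENCODE annotation Slc6a13 starts further upstream, at 121300227, so this stretch lies within the annotated gene, and 0 GENCODE transcripts hold the bases after the RefSeq start of Slc6a13 or of Slc3a1.
Slc3a1: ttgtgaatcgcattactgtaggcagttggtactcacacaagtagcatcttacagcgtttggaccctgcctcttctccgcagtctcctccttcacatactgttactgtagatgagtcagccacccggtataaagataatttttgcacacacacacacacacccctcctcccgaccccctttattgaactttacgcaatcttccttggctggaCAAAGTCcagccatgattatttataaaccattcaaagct
Slc6a13: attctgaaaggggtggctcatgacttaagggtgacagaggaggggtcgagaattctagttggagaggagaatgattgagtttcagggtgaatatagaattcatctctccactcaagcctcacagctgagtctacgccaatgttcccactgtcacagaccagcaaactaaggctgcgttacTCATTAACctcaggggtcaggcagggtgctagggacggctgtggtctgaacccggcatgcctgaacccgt

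Both runs were searched on both strands of all 32851 promoters of that length, and 3.84% held CAAAGTC and 2.33% held GTTAATNA. CAAAGTC was in the promoters of 3 members (Slc3a1, Slc7a7 and Slc36a3os) and GTTAATNA in those of 2 (Slc6a13 and Slc6a20a), of the 45. These 45 had 65 promoters in the table. The counts are of genes and the shares of promoters, so they are not on the same scale. Slc7a7 was lower in S3 and Slc3a1 higher, so the members that share CAAAGTC did not move together between segments. A match is a description of letters and not a bound site.

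The 7 members lower in S3 were Slc6a19, Slc7a8, Slc7a7, Slc43a2, Slc3a2, Slc6a8 and Slc7a9. Slc6a19, the main apical carrier of neutral amino acids (chr13:73679745-73704865), fell from S1 to S3 (log2 fold -3.07 ± 0.22 SE, adjusted p = 1.03e-08), and its basolateral counterpart Slc7a8 did so by as much (log2 fold -3.14 ± 0.21 SE, adjusted p = 7.26e-09). Slc7a7, the basolateral exporter of basic amino acids, was at 207, 274, 176 and 183 CPM in S1 and 35.9, 86.7, 19.3 and 26.6 CPM in S3 in sham, day 2, day 7 and reversed UUO (log2 fold -2.51 ± 0.19 SE, adjusted p = 2.83e-08). The uniporter Slc43a2 was lower in S3 too (log2 fold -1.82 ± 0.20 SE, adjusted p = 2.47e-06), as was the 4F2hc heavy chain Slc3a2 (log2 fold -1.49 ± 0.25 SE, adjusted p = 0.000358). Slc6a8, the creatine carrier, stood at 135, 166, 117 and 139 CPM in S1 and 50.7, 74.4, 49.98 and 52.1 CPM in S3 (log2 fold -1.40 ± 0.15 SE, adjusted p = 1.75e-06), and Slc7a9, the cystine light chain, at 109.9, 125, 93.6 and 102 and 53.4, 99.1, 46.8 and 59.0 CPM (log2 fold -0.87 ± 0.16 SE, adjusted p = 0.000663). Of the 5 basolateral list members, Slc3a2, Slc7a7, Slc7a8 and Slc43a2 were lower in S3, and Slc38a3 had 56 gated UMIs. Slc6a20a, the proline carrier, missed the threshold at an adjusted p of 0.0522 with a log2 fold of 0.97. Without the library block, Slc3a2, Slc7a9, Slc1a4 and Slc3a1 lost their calls.

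Genes of the wider pathway were read in the same test, where 7.22% of all genes were higher and 6.48% lower. Among partners, 1 of 4 tested was higher in S3 and 2 lower, of the glutathione and cystine list 3 of 7 were higher and 0 lower, and of the amino acid response list 0 of 8 were higher and 1 lower.

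**Figure D2:**
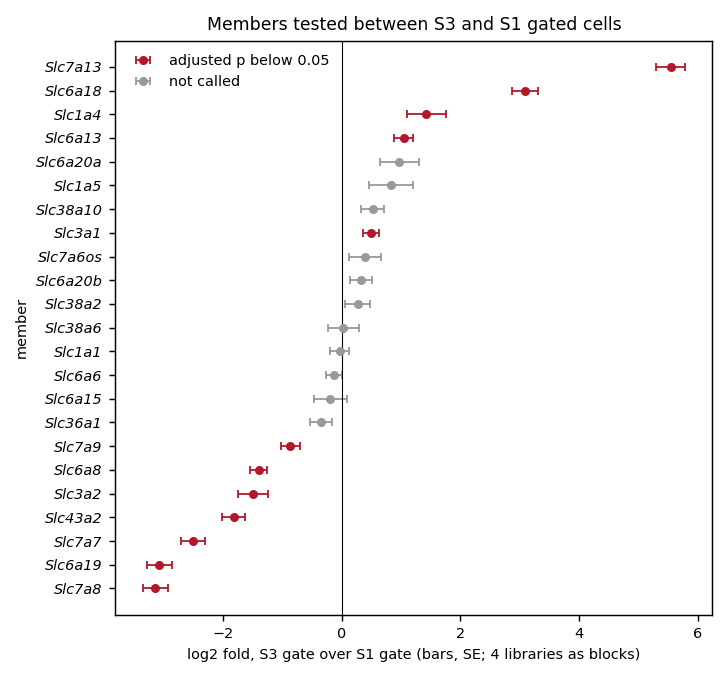
Log2 fold of each tested member in S3 against S1 from edgeR's quasi-likelihood fit over the 4 libraries, with bars of 1 standard error. Members called at an adjusted p of 0.05 are marked, with Slc7a13 at 5.54 and Slc6a18 at 3.09 at the S3 end and Slc7a8 at -3.14 and Slc6a19 at -3.07 at the S1 end.

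Slc7a13 had the largest ratio of any member between time points in the proximal tubule. Within S3 its UMIs numbered 859, 12, 183 and 395 in sham, day 2, day 7 and reversed UUO, and its level of 751 CPM in sham had a counting interval of 702 to 803, that of 18.6 on day 2 one of 9.6 to 32.5, that of 295 on day 7 one of 254 to 341 and that of 457 after reversal one of 413 to 504. The 4 intervals do not overlap, with day 2 the lowest library and sham the highest. The log2 ratio within S3 was -5.26 (counting interval -6.15 to -4.48) for day 2 against sham, -1.35 (counting interval -1.58 to -1.11) for day 7 and -0.72 (counting interval -0.89 to -0.54) for reversed UUO. In the whole proximal tubule the day 2 ratio was -4.05 (counting interval -4.58 to -3.54), and it stayed between -3.12 and -5.26 under every alternative tried. Over that whole gate the day 7 ratio was 0.09 (counting interval -0.11 to 0.29), where S3 cells were 95 of 230 against 377 of 3039 in sham, and the reversed ratio was -0.82 (counting interval -0.97 to -0.68). At least 1 Slc7a13 UMI was found in 62.1%, 6.56%, 47.4% and 56.3% of S3 cells in the same order. In endothelium, which should lack the gene, the shares were 4.42%, 0%, 0.414% and 1.09%, at median depths of 2368, 3657, 3455 and 3799 UMIs against 2417, 4272.5, 5273 and 3934 in S3. With each cell thinned to 1000 UMIs the S3 shares were 40.3%, 1.64%, 26.3% and 31.6%, so the order held at equal depth. The day 2 cells were deeper than those of sham and had fewer Slc7a13 molecules.

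The marker genes of S3 define its gate, so their levels within it follow partly from that rule and are a description. The summed S3 marker list was 2421 CPM at sham, 1662 at day 2, 2265 at day 7 and 2558 once reversed within the gate. Its abundant member Napsa was at 1296, 1139, 1336 and 1338 CPM, Atp11a at 489, 287, 477 and 509 and Slc22a30 at 589.6, 201, 363 and 655 in the same order. When S3 was drawn without Napsa, which phagocytes also express, 145, 41, 43 and 90 cells remained and Slc7a13 stood at 859.5, 22.8, 404 and 520.3 CPM. Slc6a18 was near level within S3, as given above, and Slc3a1, the partner of Slc7a13, ranged from 143 to 168 CPM. Phagocyte marker genes summed to 13.1, 71.3, 297 and 115 CPM in the S3 gate, and mitochondrial UMIs took 29.2, 20.3, 17.8 and 23.4% of it. With at most 20% mitochondrial UMIs per cell, the Slc7a13 ratio of day 2 to sham was -4.78 over the proximal tubule. The part of phagocyte RNA in it was not tested. The labels give no sex of the mice: Xist had 1, 3, 2 and 6 UMIs over the sham, day 2, day 7 and reversed libraries, and the Y-linked Ddx3y had 528, 817, 1928 and 1313.

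**Figure D3:**
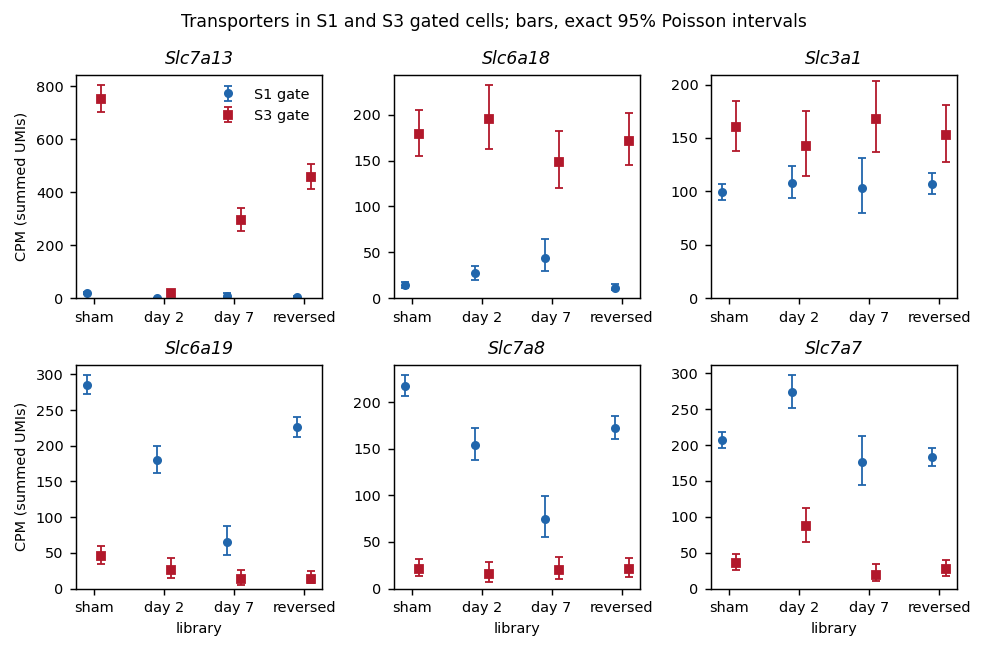
Levels of proximal tubule members in the S1 and S3 gates at each time point, in CPM, with exact 95% counting intervals as bars and 1 pooled library per point. Slc7a13 in S3 is 751 CPM in sham and 18.6 CPM on day 2, while Slc6a18 and Slc3a1 in S3 stay between 143 and 195 CPM.

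The apical carriers of S1 showed a different order. Slc6a19 stood at 286 CPM at sham, 180.3 at day 2, 65.0 at day 7 and 226 once reversed in S1, so that day 7 was the lowest library and reversed UUO lay nearer to sham. Its counting interval on day 7 was 46.7 to 88.2 CPM and that in sham 273 to 299 CPM, and the log2 ratio of day 7 to sham within S1 was -2.12 (counting interval -2.59 to -1.68). Slc7a9 was at 109.9, 125, 93.6 and 102 CPM in S1 in the same order, a narrow range, and the S1 level of Slc3a1 was 99.3 to 108 CPM. Slc1a1, the glutamate and aspartate carrier, was at 123, 77.5, 127 and 115 CPM in S3 and 118, 108, 92.0 and 103 CPM in S1. Slc6a20b, a relative of the proline carrier, was at 104, 52.7, 90.3 and 81.0 CPM in S3 and 77.0, 58.9, 33.3 and 66.1 CPM in S1. The share of S1 cells with a Slc6a19 UMI was 49.1% in sham and 29.8% on day 7, against 5.75% and 0.207% of endothelial cells, at median depths of 2909.5 and 6758.5 UMIs in S1 and 2368 and 3455 in endothelium. Thinned to 1000 UMIs, these S1 shares were 21.6% and 1.19%. Rather than moving as a block, the apical members thus differed one from another between libraries.

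On the basolateral side, Slc7a8 and its heavy chain were lower in S1 under obstruction than in sham, while Slc7a7 was higher on day 2. Slc7a8 stood at 217 CPM at sham, 154 at day 2, 74.6 at day 7 and 172 once reversed in S1, with a log2 ratio of -1.53 (counting interval -1.98 to -1.12) for day 7 against sham. Slc3a2 was at 266, 198, 132 and 209.6 CPM in S1 and 47.2, 139, 77.4 and 61.3 CPM in S3 in the same order. The day 2 library was therefore the highest for Slc3a2 in S3 but not in S1. Slc7a7 was highest on day 2 in both segments, at 274 CPM in S1 and 86.7 CPM in S3, the latter with a log2 ratio to sham of 1.25 (counting interval 0.66 to 1.85). Slc43a2 was at 123, 96.7, 79.3 and 118 CPM in S1 and 24.5, 27.9, 19.3 and 57.9 CPM in S3, where reversed UUO was past 2-fold above sham at 1.21 (counting interval 0.53 to 1.90). As with the apical genes, no single ordering of the libraries held for the whole list.

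Over the whole proximal tubule, whose own marker genes summed to 8949.5, 4949.6, 4937 and 7743 CPM in sham, day 2, day 7 and reversed UUO, more members were past 2-fold higher than lower under obstruction, and after reversal few differed from sham. On day 2, 7 of 28 members with at least 30 UMIs were past 2-fold higher and 1 lower than in sham, where 8.29% and 1.51% of all genes were. On day 7, 8 of 27 were higher and 3 lower, against 24.4% and 2.28% of all genes. After reversal, 2 of 30 were higher and 0 lower, against 9.77% and 0.178%. The median log2 ratio of the members was 0.16, 0.25 and 0.17 in these comparisons, and that of all genes 0.26, 0.52 and 0.26. The members' medians were thus below those of all genes. TMM factors, which centre the bulk of genes, add -0.34, -0.70 and -0.34 to the log2 ratios; with them, 3 members were higher and 3 lower on day 2, 4 and 10 on day 7, and 1 and 1 after reversal. The balance of higher and lower members on day 7 therefore turns with the scaling.

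Slc38a2 and Slc1a5 were past 2-fold higher than sham at each of the 3 later time points. Slc38a2 (SNAT2), an importer of alanine, glutamine and serine known to be induced by amino acid shortage and by hypertonicity, was at 11.8 CPM at sham, 27.2 at day 2, 63.5 at day 7 and 22.1 once reversed in S1. In the proximal tubule its log2 ratio to sham was 1.34 (counting interval 0.97 to 1.70) on day 2, 1.91 (counting interval 1.496 to 2.31) on day 7 and 1.04 (counting interval 0.72 to 1.37) after reversal. Slc1a5 (ASCT2), an exchanger of glutamine and other neutral amino acids, had ratios of 1.37 (counting interval 0.66 to 2.05), 2.58 (counting interval 1.86 to 3.25) and 1.51 (counting interval 0.92 to 2.07) in the same order. Both were above sham in each of the 3 other libraries and peaked on day 7. Slc1a4 (ASCT1) was instead highest on day 2, at 2.35 (counting interval 1.80 to 2.87), and 1.28 (counting interval 0.41 to 2.09) on day 7. The apical proline carrier Slc6a20a stood at 1.24 (counting interval 0.64 to 1.82) on day 2 and 1.68 (counting interval 0.97 to 2.35) on day 7. Slc6a15, a carrier of branched-chain amino acids and proline, was at 1.74 (counting interval 1.24 to 2.23) on day 7. Slc6a6, the taurine carrier, was at 1.16 (counting interval 1.00 to 1.32) on day 7, with 132, 177, 325 and 155 CPM in S1 and 116, 159.5, 289 and 186 CPM in S3 in sham, day 2, day 7 and reversed UUO. On day 2 the glycine carrier Slc6a9 (1.11, interval 0.29 to 1.87), the glutamate carrier Slc1a2 (1.09, interval 0.40 to 1.75) and Slc38a6 (1.12, interval 0.61 to 1.62) were also past 2-fold.

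Marker genes of other cells in the proximal tubule gate were also above sham in the later libraries. Those of phagocytes summed to 12.05, 74.3, 298 and 115 CPM, those of endothelium to 49.2, 67.4, 138 and 128 CPM and those of stroma to 1.24, 7.79, 81.3 and 20.9 CPM in sham, day 2, day 7 and reversed UUO. Their part in these ratios was not tested. Some of the ratios depend on which cells are counted. With at most 20% mitochondrial UMIs per cell, which leaves 230 of 3039 sham cells, the members past 2-fold higher numbered 0 at day 2, 1 at day 7 and 0 once reversed. The day 2 ratio turned to -0.03 for Slc38a2, -0.16 for Slc38a6 and -0.87 for Slc1a2, and the day 7 ratio to -0.15 for Slc38a6. Without that limit, Slc38a6 was at 6.50 CPM in sham and 17.4 CPM on day 7 in S1, and at 7.00 and 16.1 CPM in S3. Under the same limit the day 7 ratio was 0.81 for Slc38a2 and 0.85 for Slc6a6, both still above 0 but under 2-fold. Slc6a18 was past 2-fold on day 7 over the proximal tubule, at 1.31 (counting interval 1.04 to 1.56), but at -0.27 within S3 alone. In S1 it was higher on day 7, at 44.4 CPM against 14.4 CPM in sham. S3 cells were 377 of 3039 proximal tubule cells in sham and 95 of 230 on day 7. The lower members on day 7 were Slc6a19 at -2.55 (counting interval -2.94 to -2.19), Slc7a8 at -1.86 (counting interval -2.21 to -1.52) and Slc7a2, whose interval includes 0. Within S3 alone the day 7 ratio was -1.74 for Slc6a19 and -0.11 for Slc7a8, and within S1 it was -2.12 for Slc6a19. After reversal the Slc6a19 ratio within S3 was -1.64 (counting interval -2.60 to -0.76), at 45.5 CPM at sham, 26.3 at day 2, 12.9 at day 7 and 13.9 once reversed. In S3, unlike S1, the reversed value was thus as low as that of day 7. The free RNA list summed to 5632, 972, 455 and 2479 CPM in endothelium in the same order, and it was not subtracted in S3. Its part in these low S3 values was not tested, so they are not read as expression by S3 cells.

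**Figure D4:**
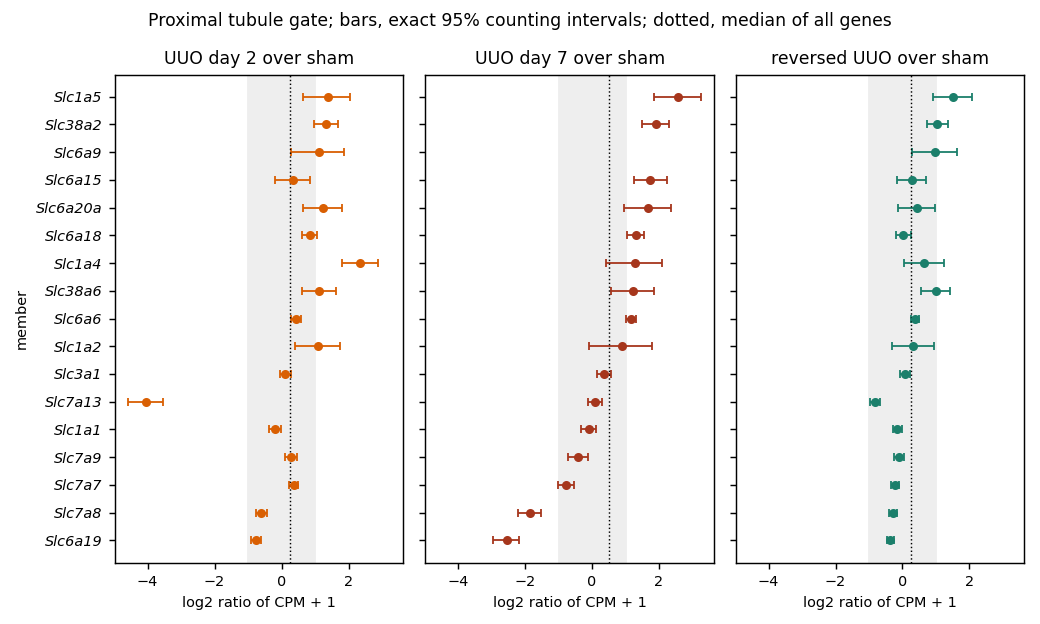
Log2 ratios of CPM + 1 to sham in the proximal tubule gate for members past 2-fold in a comparison and other apical and basolateral carriers, with exact 95% counting intervals and 1 library per time point; the grey band marks less than 2-fold and the dotted line the median of all genes. Slc7a13 lies at -4.05 on day 2 and Slc6a19 at -2.55 on day 7, while Slc1a5 and Slc38a2 lie above 0 at all 3 time points.

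Partner and response genes, taken from lists chosen with earlier results of these data known, were read in the same cells, beside the same marker sums. Collectrin, Tmem27, had a log2 ratio of -1.04 (-1.09 to -0.99) on day 2 and was the only 1 of 4 partners past 2-fold. On day 7 its ratio was -0.95 (-1.02 to -0.88), just inside that limit, and it was -0.16 (-0.19 to -0.13) after reversal. The basolateral aromatic amino acid carrier Slc16a10 was also at -0.95 (-1.52 to -0.43) on day 7. The amino acid response list holds Atf4, the gene of the stress factor ATF4, and genes that follow that factor. Of this list, 3 of 9 tested were past 2-fold higher on day 2 (Ddit3, Ddit4 and Mthfd2) and 0 lower, where 8.29% and 1.51% of all genes were. On day 7, 4 were higher and 1 lower: Atf4 at 1.17 (0.81 to 1.52), Ddit3 at 1.56 (1.00 to 2.09), Ddit4 at 2.71 (2.07 to 3.31), Mthfd2 at 1.53 (0.67 to 2.32) and Shmt2 at -1.22 (-1.65 to -0.82). After reversal Ddit4 alone of the 9 was past 2-fold, at 1.71 (1.19 to 2.22), a share near the 9.77% of all genes. Of 7 glutathione and cystine genes, Hmox1 was past 2-fold higher on day 2 at 1.81 (1.49 to 2.13), and on day 7 Gclc (2.40, interval 2.17 to 2.62), Nfe2l2 (1.32, interval 0.95 to 1.67) and Hmox1 (1.72, interval 1.31 to 2.12) were. On day 7 these counts stand beside 24.4% of all genes past 2-fold higher and 2.28% lower.

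Further along the tubule, fewer members were abundant. Slc43a2 was highest in intercalated cells, the acid-base cells of the collecting duct, at 362 CPM at sham, 192 at day 2, 159 at day 7 and 296 once reversed, above every other gate in 4 of 4 libraries. Slc1a5 in the thick ascending limb was at 112, 63.1, 60.3 and 59.5 CPM, with sham the highest library. Slc6a17, a carrier of neutral amino acids known from synaptic vesicles, was highest in the same segment, at 42.6, 21.7, 11.9 and 18.8 CPM. Slc7a1, the cationic carrier CAT1, was near level in intercalated cells at a mean of 30.2 CPM and principal cells at 29.6 CPM. Slc7a4 in principal cells and Slc38a6 in principal cells had means of 13.8 and 27.4 CPM. Slc38a6 was highest in principal cells in 1 of 4 libraries, as was Slc7a1 in intercalated cells. These segments held 22 to 265 cells per library, which limits the precision of each value.

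Outside the tubule, endothelium was tested against phagocytes. Of 22 members tested, 6 were higher in endothelium and 10 lower. Among all 10233 genes, 29.3% were higher and 27.9% lower, so the members' share was near the background for higher and above it for lower ones. Slc43a3, the purine nucleobase carrier (chr2:84936579-84958509), led the endothelial side (log2 fold 4.26 ± 0.29 SE, adjusted p = 5.28e-07). It stood at 261 CPM at sham, 246 at day 2, 281 at day 7 and 268 once reversed in endothelium, with no gap between libraries beyond counting error, and at 0, 15.3, 10.4 and 5.58 CPM in phagocytes. Its UMIs were found in 44.7%, 60.6%, 60.0% and 61.3% of endothelial cells, against 0.155%, 1.71%, 2.38% and 1.03% of S1 cells, whose median depth was 2909.5, 4771.5, 6758.5 and 4815 UMIs; thinned to 1000 UMIs, the endothelial shares were 23.0% in sham, 25.3% on day 7 and 21.0% after reversal, with 31 of 155 cells on day 2. Slc6a6, the taurine carrier (chr6:91684053-91759066), was the most counted member, and it was higher in endothelium than in phagocytes (log2 fold 1.19 ± 0.19 SE, adjusted p = 0.00037). Endothelium had 615 CPM at sham, 558 at day 2, 356 at day 7 and 571 once reversed of it, so day 7 was the lowest library there, whereas it was the highest in S1 and S3. The 5% of endothelial cells with most Slc6a6 held 34.0, 27.5, 35.4 and 38.8% of its UMIs in the same order. In the endothelium gate, phagocyte marker genes summed to 7.99, 60.9, 347 and 154 CPM and podocyte ones to 62.3, 230, 183 and 98.7 CPM. Their part in the Slc6a6 levels was not tested. Slc36a4 (log2 fold 1.27 ± 0.30 SE, adjusted p = 0.00421), Slc6a8 (log2 fold 1.05 ± 0.34 SE, adjusted p = 0.0229), Slc38a2 (log2 fold 0.65 ± 0.17 SE, adjusted p = 0.00716) and Slc38a10 (log2 fold 0.55 ± 0.16 SE, adjusted p = 0.0137) were the other 4. These 4 lost their calls without day 7. Slc38a2 also did so without reversed UUO, and Slc6a8 without sham, without day 2 and without the library block, with folds of 0.70 to 1.04 for Slc6a8. Over all settings run, the log2 fold of Slc6a8 ranged from 0.70 to 3.27. Slc43a3 and Slc6a6 kept their calls in each setting run. Without day 7, or without reversed UUO, 6 members were called lower instead of 10.

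The 10 members lower in endothelium are carriers of several kinds of substrate and 1 opposite-strand gene. Of 3 glutamine carriers tested, 1 was higher in endothelium and 2 lower, where 29.3% and 27.9% of all genes were. Slc38a1 (SNAT1) was lower in endothelium (log2 fold -3.48 ± 0.27 SE, adjusted p = 1.32e-06) and was at 45.4, 42.2, 35.9 and 28.3 CPM in phagocytes in sham, day 2, day 7 and reversed UUO. Slc7a11 (log2 fold -3.02 ± 0.34 SE, adjusted p = 4.39e-05) and the large neutral carrier Slc7a5 (log2 fold -2.52 ± 0.47 SE, adjusted p = 0.000897) did likewise, with the basolateral-type genes Slc43a2 (log2 fold -2.30 ± 0.21 SE, adjusted p = 4.39e-06) and Slc7a8 (log2 fold -2.11 ± 0.32 SE, adjusted p = 0.000214). The lysosomal carrier Slc36a1 (log2 fold -2.23 ± 0.39 SE, adjusted p = 0.000659), the lysosomal arginine sensor Slc38a9 (log2 fold -0.62 ± 0.21 SE, adjusted p = 0.025) and Slc1a5 (log2 fold -1.45 ± 0.21 SE, adjusted p = 0.000161) were lower in endothelium, as was the opposite-strand gene Slc36a3os (log2 fold -3.86 ± 0.61 SE, adjusted p = 0.000282). Slc38a9, Slc36a1, Slc7a8 and Slc7a11 were lower in 3 of 4 libraries; in sham, Slc36a1 stood at 9.59 CPM in endothelium against 4.54, Slc7a8 at 15.99 against 13.6, and Slc7a11 at 0 in both. Slc7a7 was called (log2 fold -0.66 ± 0.17 SE, adjusted p = 0.00696) but lower in CPM in only 2 of 4 libraries. It stood at 30.4, 30.4, 24.5 and 24.5 CPM in endothelium in sham, day 2, day 7 and reversed UUO. In phagocytes it was at 27.3, 29.1, 29.5 and 28.96 CPM. Slc7a7 lost the call without day 7 and without reversed UUO, both with a fold of -0.59. Slc38a9 lost its call in DESeq2, without day 7 and without reversed UUO, with folds of -0.55 to -0.56. Its levels were 12.8, 19.8, 16.8 and 13.9 CPM in endothelium and 13.6, 17.5, 19.4 and 15.9 CPM in phagocytes. For Slc7a7 and Slc38a9 the CPM were thus near level, and the part of the TMM factors in their calls was not tested. The shared heavy chain Slc3a2 was at 229, 385, 327 and 289.9 CPM in endothelium and 132, 172, 150.3 and 199.7 CPM in phagocytes. Its CPM were thus higher in endothelium in 4 of 4 libraries, but it was not called (log2 fold 0.40 ± 0.17 SE, adjusted p = 0.0595). That fold carries TMM factors and these CPM do not, and the part of that scaling was not tested.

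**Figure D5:**
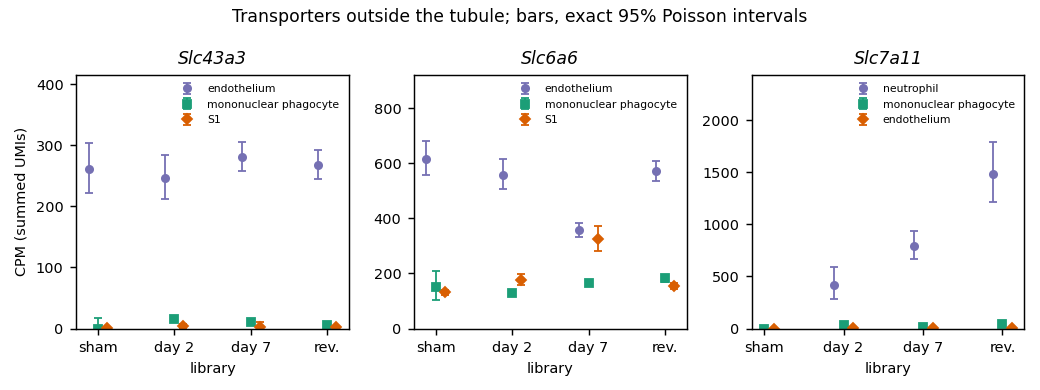
Levels of Slc43a3 and Slc6a6 in endothelium, phagocytes and S1, and of Slc7a11 in neutrophils, phagocytes and endothelium, in CPM, with exact 95% counting intervals and 1 library per point; sham has no neutrophil point because 0 such cells were found. Slc43a3 lies between 246 and 281 CPM in endothelium, and Slc7a11 reaches its highest values in neutrophils.

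In endothelium few members differed between time points. On day 2, 1 of 9 members with enough UMIs was past 2-fold higher than in sham and 0 lower, against 3.16% and 3.53% of all genes. On day 7 it was 2 higher and 0 lower of 14, against 7.18% and 4.33%, and after reversal 2 and 0 of 14, against 6.98% and 2.81%. These were Slc1a5 on day 2 and Slc7a1 and Slc43a2 on day 7 and after reversal, each on 3 to 8 UMIs in sham, and only the interval of Slc7a1 after reversal, a log2 ratio of 1.52 (counting interval 0.01 to 3.16), left out 0 among the 5. With a pseudocount of 10 CPM, under strict gates or after subtraction of free RNA, 0 members were past 2-fold in any of the 3 comparisons.

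In phagocytes, day 7 was set against day 2 and reversed UUO against day 7, since sham held 57 such cells. On day 7, 1 of 30 members was past 2-fold higher than on day 2 and 2 lower, against 7.28% and 2.72% of all genes. After reversal, 5 of 32 were higher than on day 7 and 0 lower, against 1.9% and 0.695%. Slc7a11, the cystine importer (xCT) that feeds glutathione synthesis (chr3:49892526-50443614), had the largest ratio of day 7 to day 2. It was at 0 UMIs in sham, which allows up to 13.6 CPM, and at 37.5 CPM in day 2 phagocytes, 11.9 CPM in those of day 7 and 40.3 CPM in reversed UUO. The log2 ratio was -1.57 (counting interval -1.84 to -1.30) for day 7 against day 2 and 1.68 (counting interval 1.39 to 1.96) for reversed UUO against day 7. So day 7 was the low library between a pair of higher ones. The UMIs were held by few cells: 58 of 532 phagocytes on day 2 had any, 110 of 2315 on day 7 and 60 of 589 after reversal, and on day 2 the 5% of cells with most held 83.0% of them. Of S1 cells, 0%, 0% and 0.647% had any in these libraries, and thinned to 1000 UMIs the phagocyte shares were 2.07%, 1.3% and 2.55%, from median depths of 10073, 6543 and 6799 UMIs. Neutrophil marker genes in the phagocyte gate summed to 13.6, 149, 162 and 59.8 CPM in sham, day 2, day 7 and reversed UUO, and Slc7a11 was at 417, 794 and 1479.9 CPM in cells of the neutrophil gate on day 2, day 7 and after reversal. Their part in the result was not tested. In S1 cells Slc7a11 was at 0, 0, 0 and 1.11 CPM.

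The Slc7a11 promoter is shown because Slc7a11 is a known target of ATF4, the factor of the amino acid response. The 250 bases before the RefSeq start (chr3:50443614-50443863, minus strand, GRCm38.p6, 5′ to 3′) hold TGATGCAA, the composite letters bound by ATF4 with a partner, in 2 copies given in capitals, one on each strand, 66 to 59 and 47 to 40 bases before the start.
Slc7a11: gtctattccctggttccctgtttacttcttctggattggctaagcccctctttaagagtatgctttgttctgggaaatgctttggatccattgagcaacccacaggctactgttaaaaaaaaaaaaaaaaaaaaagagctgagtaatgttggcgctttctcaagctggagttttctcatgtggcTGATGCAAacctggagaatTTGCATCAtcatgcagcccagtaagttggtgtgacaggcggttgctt

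Searched on both strands, TGATGCAA was in 0.791% of all 32851 promoters (260) and in 2 or more copies in 2 of them, or 0.00609%. Slc7a7 was the other member with a copy. Of the amino acid response list, 1 of 11 genes tested in phagocytes was past 2-fold higher on day 7 than on day 2 (Ddit3, 1.05, interval 0.74 to 1.37) and 3 lower, against 7.28% and 2.72% of all genes. The lower ones were Psat1 at -1.54 (-1.83 to -1.26), Shmt2 at -1.24 (-1.51 to -0.96) and Ddit4 at -1.91 (-2.16 to -1.66). Hmox1 was lower as well, at -1.46 (-1.58 to -1.34). After reversal 0 of the 11 were past 2-fold from day 7, against 1.9% of all genes higher and 0.695% lower. Below that limit, the intervals of 3 left out 0: Atf4 at 0.49 (0.30 to 0.67), Shmt2 at 0.57 (0.22 to 0.91) and Nupr1 at -0.49 (-0.69 to -0.28). Of the glutathione list Srxn1 was past 2-fold, at 1.21 (0.82 to 1.59).

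The other phagocyte members past 2-fold were Slc7a5, at -1.46 (counting interval -1.85 to -1.07), and Slc38a6, at 1.18 (counting interval 0.73 to 1.63), on day 7 against day 2. Slc7a5 stood at 9.09 CPM at sham, 16.1 at day 2, 5.22 at day 7 and 7.08 once reversed, so day 2 was its highest library. After reversal the creatine carrier Slc6a8 was at 1.89 (counting interval 1.43 to 2.35) against day 7, on 67 and 51 UMIs. The tubule genes Slc6a19 (1.93, interval 1.28 to 2.45), Slc3a1 (1.23, interval 0.59 to 1.82) and Slc1a1 (1.28, interval 0.62 to 1.89) were also past 2-fold in phagocytes. For these 3 the reversed phagocytes held 23, 25 and 22 UMIs, where free RNA in the ratio of the proximal tubule would give 49.5, 32.6 and 30.1; subtracting it left a ratio of 0. By that measure they are at background in phagocytes and are not read as expression. The Slc6a8 ratio was 2.94 after the same subtraction, where too few UMIs remained for it to be counted, and Slc7a11 was then at 1.89.

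The Smart-seq2 wells gave a second view of phagocytes with reads over whole transcripts, for which levels may be compared between genes per kilobase. Of 768 wells, 729 (94.9%) passed the phagocyte gate, with a median of 88907 reads. Per kilobase, the 4F2hc heavy chain Slc3a2 was the highest member at 77.2 CPM per kilobase, followed by Slc1a5 (37.0), Slc7a8 (28.5), Slc6a6 (28.0), Slc7a7 (21.7), Slc7a6 (16.3) and Slc38a10 (11.4). The heavy chain was thus followed by its basic and neutral light chains and by the glutamine and taurine carriers. Slc7a11 had reads in 71 of these wells (9.74%), and 1 well held 78.5% of its reads, so no level is read from it. Of the 63 members, 57 had reads, and so did the 3 symbols with 0 UMIs in the droplets. The wells carry no time point, so none is given.

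T cells were tested against phagocytes in the same way. Of 15 members tested, 2 were higher in T cells and 4 lower. Among all 8054 genes, 17.7% were higher and 20.5% lower, close to the members' shares. Slc1a5, the glutamine exchanger that dividing T cells depend on, was higher (log2 fold 0.89 ± 0.18 SE, adjusted p = 0.000582), at 96.9 CPM at sham, 86.1 at day 2, 81.4 at day 7 and 79.0 once reversed in T cells and 63.6, 47.1, 33.7 and 36.04 CPM in phagocytes. Slc38a2 was higher too (log2 fold 0.56 ± 0.17 SE, adjusted p = 0.0127), but lost the call without a filter on low counts, without the library block, without day 7 and without reversed UUO, with folds of 0.40 to 0.49. The exporters Slc7a8 (log2 fold -2.62 ± 0.39 SE, adjusted p = 1.56e-05) and Slc7a7 (log2 fold -2.23 ± 0.34 SE, adjusted p = 2.58e-05), the taurine carrier Slc6a6 (log2 fold -1.61 ± 0.20 SE, adjusted p = 2.13e-06) and Slc43a2 (log2 fold -1.01 ± 0.24 SE, adjusted p = 0.00223) were lower in T cells. Slc7a7 stood at 24.2, 4.31, 3.7 and 12.5 CPM in T cells and 27.3, 29.1, 29.5 and 28.96 CPM in phagocytes in sham, day 2, day 7 and reversed UUO, and Slc7a8 at 0, 8.61, 2.22 and 4.16 and 13.6, 25.7, 17.3 and 25.5 CPM. After subtraction of free RNA Slc6a6 and Slc43a2 were the 2 called lower, Slc7a7 and Slc7a8 having too few UMIs to test, and without the 18 T cells of sham 9 members were called lower. With 18 cells, the sham T cell values rest on very few molecules.

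Other described members were spread thinly over several gates. Among the lysosomal carriers, Slc36a1 had its highest mean in unsplit proximal tubule cells (42.3 CPM), and Slc38a9 (16.6 CPM) and Slc38a7 (7.96 CPM) had theirs in phagocytes. Slc38a10 (73.9 CPM) and Slc36a4 (21.4 CPM) were highest in endothelium, the 4F2hc light chain Slc7a6 in distal convoluted tubule (9.29 CPM), and the opposite-strand genes Slc7a6os (23.8 CPM) and Slc36a3os (12.6 CPM) in T cells. Slc38a9, Slc38a7 and Slc7a6 were each highest in the gate named in 1 of 4 libraries, with 3 UMIs of Slc38a7 in the sham phagocytes and 0 of Slc7a6 in the sham distal convoluted tubule. Slc38a9 ranged from 13.6 to 19.4 CPM over the phagocyte libraries, and its second gate, endothelium, had a mean of 15.8 CPM.

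The remaining members had few UMIs in the gates compared. With 30 or more UMIs in all but fewer than 200 in gated cells were Slc6a20a (165), Slc6a9 (149), Slc7a2 (147), Slc1a2 (135), Slc7a14 (123), Slc1a3 (91), Slc38a3 (56), Slc7a12 (54), Slc6a4 (38), Slc6a12 (28), Slc38a4 (25) and Slc6a2 (24), in gated UMIs. Slc38a3, the basolateral glutamine carrier that serves ammonia production, was among these rarer genes. Among those with 1 to 29 UMIs in all were Slc43a1 (27), Slc36a2 (26), Slc38a11 (25), Slc36a3 (20), Slc6a14 (19), Slc7a15 (14), Slc7a3 (12), Slc6a19os (9), Slc1a6 (7), Slc6a7 (5), Slc7a10 (3), Slc6a3 (3), Slc38a5 (2), Slc38a8 (2), Slc36a1os (2) and Slc6a11 (1). Neurotransmitter carriers such as Slc6a2 (noradrenaline), Slc6a3 (dopamine), Slc6a4 (serotonin) and Slc6a11 (GABA) fall in these groups, as does the intestinal carrier Slc6a14. None of the members with 1 to 29 UMIs was compared.

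The most similar member was sought for each of the 5 most counted ones, over 44 sums of gate and library, with no cell in more than 1 sum. On log2(CPM + 1), Slc6a6 was most like Slc3a2 (Pearson r 0.52), Slc3a2 most like Slc43a3 (0.57), Slc38a2 most like Slc7a6 (0.77) and Slc7a1 (0.70), Slc43a2 most like Slc7a8 (0.66), and Slc7a7 most like Slc7a9 (0.81), Slc6a20b (0.77) and Slc6a15 (0.74). These correlations are descriptions, since sums of 1 library share its depth and free RNA.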

How the data were processed

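The authors deposited raw counts: UMI counts per gene and cell for 4 droplet libraries and read counts per gene and well for 768 Smart-seq2 wells, each made from pools of 3 mice per the labels. Cell Ranger, STAR and the builds GRCm38 and mm10 are named in the submitters' processing notes without versions or roles. Each sample was grouped by the condition given in its labels.

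Droplets under 200 detected genes or over 50% mitochondrial UMIs were dropped, and doublets by Scrublet score, at 0.8% of cells per 1000 deposited. A cell entered a gate when at least 2 of its markers were detected and their UMIs were at least 2 times those of the next class; S1 and S3 were split by the same factor. UMIs were summed by gate and library and given as CPM, with a pseudocount of 1 for log2 ratios, a minimum of 30 UMIs in the 2 libraries, a 2-fold limit and exact conditional binomial intervals at 95%. UMIs can share amplification errors and pooled mice vary, so intervals, floors (3 counts) and shares cover counting error only. Gates were tested on sums by library by edgeR 4.0.16 (limma 3.58.1, R 4.3.3) with TMM factors. DESeq2 1.42.0 was an alternative, and p-values had Benjamini-Hochberg adjustment over all genes. The fit was checked on simulated data, but no outcome of that check is reported here, so no result rests on it. P-values rest on 4 libraries that differ in time point, so they measure spread over these. Python 3.11.15, numpy 2.4.6, pandas 2.3.3, scipy 1.17.1, scanpy 1.11.5 and matplotlib 3.10.9 were used.

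Members and lists were chosen with earlier results of these data known. Named were every member with at least 200 gated UMIs by gate, the 10 lowest p of each gate test, and members past 2-fold with a counting interval that left out 0. Members outside that rule were named after their values were seen, where a small count called for it (the remaining calls of a test, Slc7a2 in proximal tubule, the endothelial members past 2-fold and the rare members). Alternatives covered scaling, filters, gates, doublets, mitochondrial limits, free RNA and leaving out libraries. For the gate tests, no alternative left scaling factors out. Coordinates are GRCm38 from GENCODE M21. Results for 2 of the genes counted here, and for 1 list that holds one of them, are not reported.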

Additional observations from a re-analysis of the deposited data

Results flagged for a closer look

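Cells of the neutrophil and stroma gates entered no comparison, and a strong signal of a member in them was seen. Slc7a11, the cystine importer, stood at 417 CPM in 18 neutrophils on day 2 (counting interval 281 to 596), 794 CPM in 48 on day 7 (671 to 934) and 1479.9 CPM in 19 after reversal (1214 to 1787); sham held 0 such cells. It was carried by 9, 39 and 14 of those cells, and by 30, 146 and 108 UMIs. In phagocytes of the same libraries it stood at 37.5, 11.9 and 40.3 CPM.

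Slc7a2, the cationic carrier CAT2 that supplies arginine, stood at 122 CPM in 78 stromal cells on day 7 (98.6 to 150.0) and 166 CPM in 76 after reversal (136 to 201), in 35 and 47 of the cells. Sham and day 2 held 1 and 5 stromal cells. In endothelium Slc7a2 stood at 3.2, 5.29, 0.959 and 6.13 CPM in sham, day 2, day 7 and reversed UUO. With 1 pooled library per time point, no difference between these libraries was tested.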

How the results depend on the processing

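Ratios of named members between time points, folds of called members between gates and the counts given below were recomputed under other settings. Of 266 alternative values for 29 log2 ratios of named members between time points, 261 kept their direction. Of 324 alternative values for 34 folds between gates, all kept their direction, and 11 of the 34 lost the call in 27 of them, as given in the report for the main ones. The size of some log2 folds moved. In endothelium against phagocytes they reached -5.34 for Slc38a1, -3.91 for Slc43a2, -5.58 for Slc36a3os, 5.52 for Slc43a3 and 3.27 for Slc6a8. In S3 against S1 that of Slc7a13 ranged from 3.99 to 6.20. Free RNA was not subtracted for S3 against S1 or for the proximal tubule, where the tubule is its source. Where a value moved, the cause was not tested.

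With at most 20% mitochondrial UMIs per cell, the ratio to sham turned to -0.87 for Slc1a2, -0.16 for Slc38a6 and -0.032 for Slc38a2 on day 2 and to -0.15 for Slc38a6 on day 7, and in S3 alone it turned to -0.27 for Slc6a18 on day 7.

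Counts of members past 2-fold in the proximal tubule moved by more than 1.5 times as follows. On day 2 against sham, the 7 higher became 1 with a pseudocount of 10 CPM, 3 with TMM factors, 0 at 20% mitochondrial UMIs, 4 in S1 alone and 3 in S3 alone. On day 2 against sham, the 1 lower became 3 with TMM factors, 3 at 20% mitochondrial UMIs, 2 with each cell counted equally, 2 on non-mitochondrial CPM and 2 in S1 alone. On day 7 against sham, the 8 higher became 5 with a pseudocount of 10 CPM, 4 with TMM factors, 20 with no minimum of UMIs, 1 at 20% mitochondrial UMIs, 5 on non-mitochondrial CPM and 2 in S3 alone. On day 7 against sham, the 3 lower became 10 with TMM factors, 6 on non-mitochondrial CPM and 6 in S1 alone. For reversed UUO against sham, the 2 higher became 0 with a pseudocount of 10 CPM, 1 with TMM factors, 6 with no minimum of UMIs, 1 in strict gates, 0 at 20% mitochondrial UMIs, 1 on non-mitochondrial CPM and 1 in S1 alone. For reversed UUO against sham, the 0 lower became 1 with TMM factors, 1 at 20% mitochondrial UMIs, 1 in S1 alone and 1 in S3 alone.

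Counts of members past 2-fold in phagocytes moved by more than 1.5 times as follows. On day 7 against day 2, the 1 higher became 0 with a pseudocount of 10 CPM. On day 7 against day 2, the 2 lower became 1 with a pseudocount of 10 CPM and 4 with free RNA subtracted. For reversed UUO against day 7, the 5 higher became 1 with a pseudocount of 10 CPM and 1 with free RNA subtracted. For reversed UUO against day 7, the 0 lower became 1 with each cell counted equally and 1 with free RNA subtracted.

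Counts of members past 2-fold in endothelium moved by more than 1.5 times as follows. On day 2 against sham, the 1 higher became 0 with a pseudocount of 10 CPM, 10 with no minimum of UMIs, 0 in strict gates, 0 with each cell counted equally and 0 with free RNA subtracted. On day 2 against sham, the 0 lower became 9 with no minimum of UMIs. On day 7 against sham, the 2 higher became 0 with a pseudocount of 10 CPM, 5 with no minimum of UMIs, 0 in strict gates, 1 with each cell counted equally and 0 with free RNA subtracted. On day 7 against sham, the 0 lower became 11 with no minimum of UMIs. For reversed UUO against sham, the 2 higher became 0 with a pseudocount of 10 CPM, 9 with no minimum of UMIs, 0 in strict gates and 0 with free RNA subtracted. For reversed UUO against sham, the 0 lower became 6 with no minimum of UMIs.

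In the gate tests the replicate block is the library, since gates of 1 library come from the same pool of mice, and the block stands in the reported values. The number of genes higher in S3 than S1 (506) became 315 in DESeq2, 125 with no replicate block (library left out) and 212 at 20% mitochondrial UMIs and 281 to 601 without 1 library at a time. The number of members higher in S3 than S1 (5) became 3 with no replicate block (library left out) and 3 at 20% mitochondrial UMIs and 3 to 6 without 1 library at a time. The number of genes lower in S3 than S1 (454) became 222 in DESeq2, 685 with no filter on low counts, 110 with no replicate block (library left out) and 130 at 20% mitochondrial UMIs and 193 to 549 without 1 library at a time. The number of members higher in endothelium than phagocyte (6) became 2 to 6 without 1 library at a time. The number of members lower in endothelium than phagocyte (10) became 6 to 10 without 1 library at a time. The number of genes higher in T cell than phagocyte (1428) became 911 in DESeq2 and 925 with no replicate block (library left out) and 606 to 1760 without 1 library at a time. The number of members higher in T cell than phagocyte (2) became 1 with no filter on low counts and 1 with no replicate block (library left out) and 1 to 3 without 1 library at a time. The number of genes lower in T cell than phagocyte (1655) became 2605 with no filter on low counts. The number of members lower in T cell than phagocyte (4) became 10 with no filter on low counts and 2 with free RNA subtracted and 3 to 9 without 1 library at a time.

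Depth limits the sham phagocytes and T cells (57 and 18 cells), the day 7 proximal tubule (230) and every member under 30 UMIs. Settings on non-mitochondrial UMIs, S1 or S3 alone and an S3 list without Napsa were chosen after seeing the data.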
